A study of Brassica napus with 48 samples.

Results

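LRL1 (BnaA09g41470D), HB40 (BnaC01g02120D) and bZIP3 (BnaA03g05670D) are genes for transcription factors (TFs) of rapeseed (Brassica napus), and they are 3 of the 101040 annotated genes measured in developing seeds. They were taken by their gene identifiers. The study had listed all 3 among the leading TFs of a co-expression module at 14 days after flowering (DAF). That module was kept for its relation to seed number and seed weight and its share of genes regulated by shading in these same libraries. The likeness of the 3 genes to each other is therefore not independent evidence. Nor are their differences between shaded and control plots, above all at 14 DAF. The 48 libraries came from 24 field plots of the spring hybrids Solar and Lumen, each sampled at 14 and 7 DAF. Plots were either shaded, with nets that intercepted 75% of the radiation between the beginning of flowering and 15 DAF, which lowers the source–sink (S–S) ratio, or were unshaded controls, and they were sown at a late or an optimal date. These 4 factors gave 16 groups with 3 replicates in each. For a library, 5 plants per plot were sampled, at 55 plants per m2, and seeds were pooled over 25 siliques from each plant.

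The 3 TFs belong to different families. In Arabidopsis, LRL1 is a basic helix-loop-helix (bHLH) factor that promotes root hair development. HB40 is a class I homeodomain-leucine zipper (HD-Zip) factor which, with its relatives HB21 and HB53, acts downstream of BRC1 in axillary buds and raises the expression of NCED3, a gene for a key step of abscisic acid (ABA) synthesis, in buds that stay dormant under shade. bZIP3 is a basic leucine zipper factor of group S, a group that includes several regulators of the response to low sugar. Their roles in the seeds of rapeseed were not tested here.

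All 3 genes were expressed at a low level. Values are TPM, a measure of transcript abundance per transcript length, normalized between libraries and rounded to whole numbers by the authors, so that a value listed at 0 stands for anything below 0.5 TPM and the read depth behind it is unknown. The mean over 48 libraries was 1.75 TPM for LRL1, 3.67 TPM for HB40 and 3.17 TPM for bZIP3, against a median of 5.69 TPM over the 53810 genes tested. A gene was tested where at least 23 libraries had 1 TPM or more. LRL1 reached 1 TPM in 22 of 24 shaded and 14 of 24 control libraries, HB40 in 21 shaded and 9 control libraries, and bZIP3 in 20 shaded and 9 control libraries. None of them reached 23 libraries in shaded plots alone. Most of the libraries that counted for HB40 and bZIP3 were shaded, so that passing the filter depended on the group in which they were high.

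The libraries summed to between 908993 and 1219379 TPM, and 51583 to 56691 genes were above 0 in each. Some labels of Solar plots could not be taken at face value. Genes present in all late-sown libraries of one genotype at 14 DAF and listed at 0 in the other gave each remaining library a Solar share, which was at most 1.69% in the 18 remaining Lumen libraries. Of the 18 remaining libraries labelled Solar, 5 had a share of at least 99%, 11 lay between 10.9% and 87.0%, and both libraries labelled Solar, optimal sowing, 7 DAF, replicate 2 (shaded and control) had 1.34% and 1.35%. Differences between libraries labelled Solar and Lumen, and between sowing dates within Solar, are therefore given with these shares, and calls that changed without the last pair of libraries, or within Lumen, are given too. Among these 18 libraries labelled Solar the shares also differed between shaded and control libraries and between the times. Shading and time differences that involve these libraries therefore cannot be told apart from those in share. The late-sown Solar libraries at 14 DAF served as the standard and have 100% by definition. Their shares thus give no check on the shading difference there.

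Over all 48 libraries, all 3 genes were higher in shaded than in control plots. In Lumen alone, HB40 was the only one of the 3 that was called. On the log2(TPM + 0.5) scale, which understates changes of low genes, shaded minus control plots gave 1.32 ± 0.23 for LRL1, 2.38 ± 0.26 for HB40 and 1.88 ± 0.26 for bZIP3 (estimate ± SE, 24 shaded against 24 control libraries), with adjusted p of 8.0e-05, 4.15e-08 and 2.86e-06 in the limma fit over all genes tested. In the same term, 6.18% of the genes tested were called higher in shaded plots and 3.03% lower. Shading was assigned to subplots that each held both genotypes, and the fit has no term for these subplots. The 24 libraries per treatment are thus not independent units of shading, and the p-values can be too small. The mean level was 2.79 ± 2.59 TPM in shaded and 0.708 ± 0.690 TPM in control libraries for LRL1 (SD, n = 24 each). For HB40 it was 6.75 ± 6.41 TPM in shaded and 0.583 ± 0.881 TPM in control libraries. For bZIP3 it was 5.54 ± 7.47 TPM in shaded and 0.792 ± 1.72 TPM in control libraries. In bulk seed RNA, more cells that express a gene and more RNA per cell cannot be told apart.

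The genes were often present or absent together, along the contrast of shaded and control plots. No such counts were made for other genes, and the 3 were taken from 1 co-expression module of these libraries. All 3 were above 0 in 19 shaded and 6 control libraries, and all 3 were listed at 0 in 1 shaded and 8 control libraries. All 3 reached at least 4 TPM in 6 libraries, each of them from a shaded plot of the late sowing date.

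**Figure D1:**
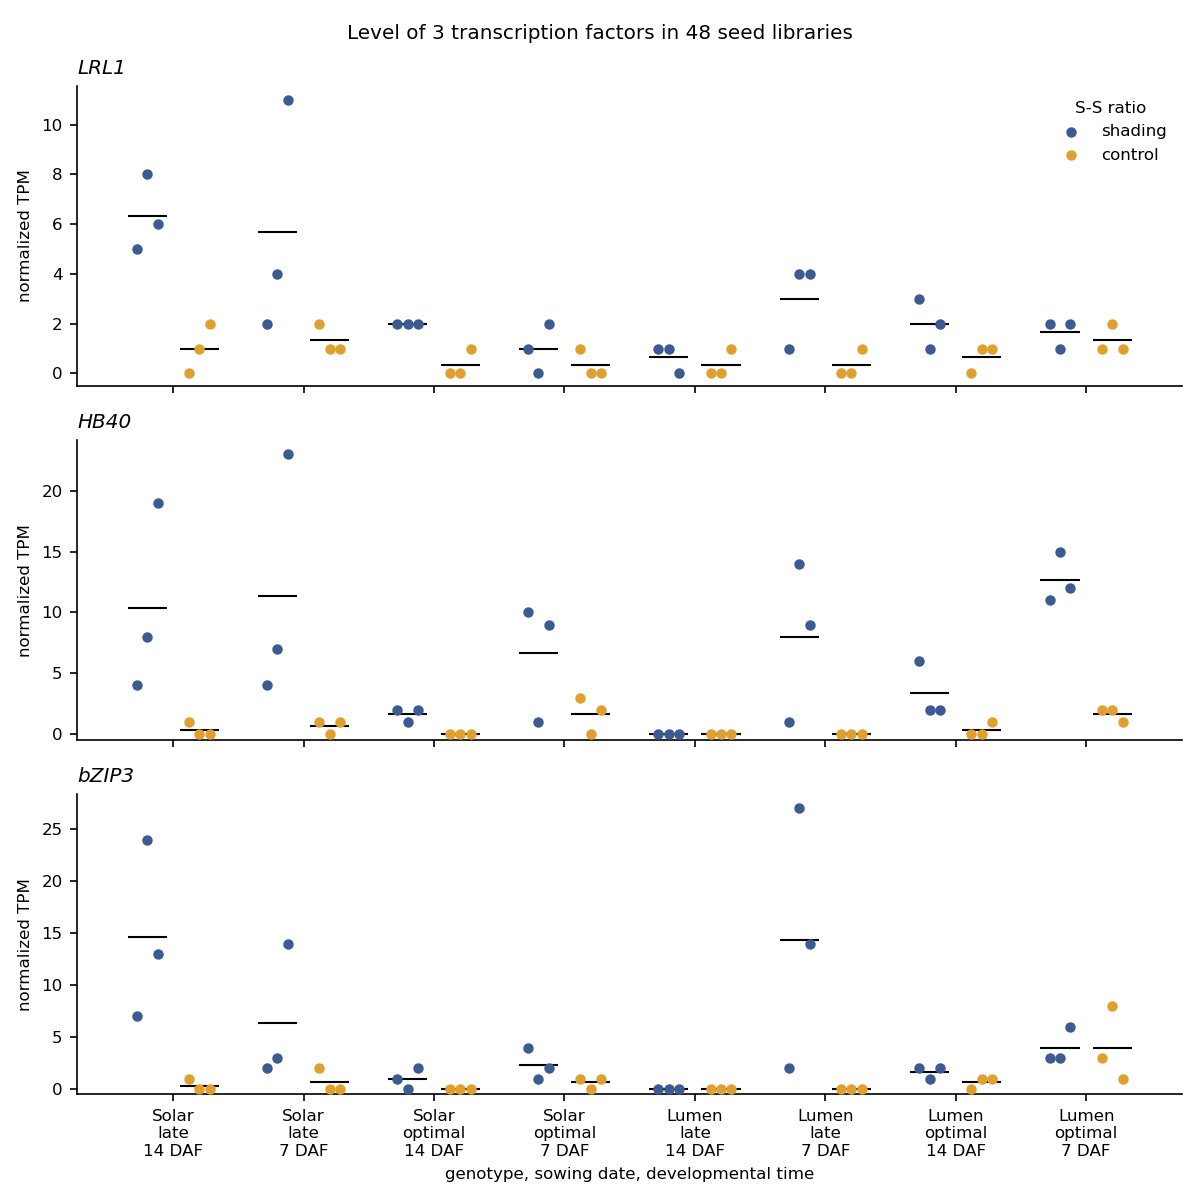
Normalized TPM of LRL1, HB40 and bZIP3 (vertical axes, each on its own scale) by genotype, sowing date and time (8 combinations, horizontal axis), with shaded libraries in blue on the left and control libraries in orange on the right of each pair. Points are libraries (3 per group) and lines are means, and the highest control value is 2 TPM for LRL1, 3 TPM for HB40 and 8 TPM for bZIP3.

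LRL1, the bHLH gene, was the lowest of the 3 and was highest in shaded Solar plots of the late sowing date. At 14 DAF those plots had 5, 8 and 6 TPM, against 0, 1 and 2 TPM in their controls. At 7 DAF they had 2, 4 and 11 TPM, against 2, 1 and 1 TPM in control plots. The groups were apart at 14 DAF and touched at 7 DAF, where 1 shaded library was as low as the highest control.

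In optimal-sown Solar plots, LRL1 had 2 TPM in each of the 3 shaded libraries at 14 DAF, against 0, 0 and 1 TPM in controls. At 7 DAF the shaded plots had 1, 0 and 2 TPM and the controls 1, 0 and 0 TPM. The 14 DAF groups did not overlap, and the 7 DAF groups did. The Solar shares of the shaded and control groups also differed at both times.

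In Lumen, LRL1 reached 1, 4 and 4 TPM in late-sown shaded plots at 7 DAF, against 0, 0 and 1 TPM in controls. At 14 DAF the late-sown shaded plots had 1, 1 and 0 TPM, against 0, 0 and 1 TPM in controls. The optimal-sown Lumen plots had 3, 1 and 2 TPM with shading at 14 DAF, against 0, 1 and 1 TPM in controls. At 7 DAF, optimal-sown Lumen plots had 2, 1 and 2 TPM with shading and 1, 2 and 1 TPM without. All 4 Lumen pairs overlapped, and the mean log2 value was higher in shaded plots in each of them.

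HB40, the HD-Zip gene, had the most distinct shaded and control groups. Its highest group mean was in shaded, optimal-sown Lumen plots at 7 DAF, with 11, 15 and 12 TPM, against 2, 2 and 1 TPM in controls. At 14 DAF the same kind of plots had 6, 2 and 2 TPM with shading and 0, 0 and 1 TPM without. Both pairs were apart.

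Late-sown Lumen plots differed between the 2 times. With shading, HB40 was listed at 0 in all 3 libraries at 14 DAF, as it was in all 3 controls. At 7 DAF the shaded plots had 1, 14 and 9 TPM, and the 3 controls were again listed at 0. This was the only one of the 8 combinations in which HB40 had the same values in shaded and control plots.

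In libraries labelled Solar, HB40 had 4, 8 and 19 TPM in late-sown shaded plots at 14 DAF, against 1, 0 and 0 TPM in controls. At 7 DAF these plots had 4, 7 and 23 TPM with shading and 1, 0 and 1 TPM without. In optimal-sown Solar plots at 14 DAF, the shaded libraries had 2, 1 and 2 TPM and the controls were all listed at 0. At 7 DAF they had 10, 1 and 9 TPM with shading, against 3, 0 and 2 TPM in controls. Only the last pair overlapped, and its low shaded value of 1 TPM was in the replicate whose Solar share was 1.34%. Shaded, optimal-sown Lumen plots at 7 DAF had 11, 15 and 12 TPM. The part of the share in the low value was not tested.

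bZIP3 had the widest range of the 3, with its 2 highest values in late-sown shaded plots. Late-sown Lumen plots at 7 DAF had 2, 27 and 14 TPM with shading, while all 3 controls were listed at 0. At 14 DAF all 3 shaded and all 3 control libraries of these plots were listed at 0. Late-sown Solar plots at 14 DAF had 7, 24 and 13 TPM with shading, against 1, 0 and 0 TPM in controls. At 7 DAF they had 2, 3 and 14 TPM with shading and 2, 0 and 0 TPM without. The first and the third of these pairs were apart, and the last touched at 2 TPM.

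At the optimal sowing date bZIP3 differed less between shaded and control plots. Lumen plots at 7 DAF averaged 4.0 TPM in both, with 3, 3 and 6 TPM in shaded plots and 3, 8 and 1 TPM in controls. At 14 DAF, Lumen plots had 2, 1 and 2 TPM with shading and 0, 1 and 1 TPM without. Solar plots had 1, 0 and 2 TPM with shading at 14 DAF, with all 3 controls listed at 0. At 7 DAF, Solar plots had 4, 1 and 2 TPM with shading and 1, 0 and 1 TPM without. All 4 of these pairs overlapped. The S–S ratio by sowing date term for bZIP3 was 1.80 ± 0.53 on the log2 scale, with an unadjusted p of 0.0016 and an adjusted p of 0.658 in the limma fit, so it did not pass the threshold. Neither did any other gene, as limma called 0% of the 53810 genes for this term, with 3372 genes at an unadjusted p under 0.05.

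Counted over the 8 combinations, the mean log2 value was higher in shaded than in control plots in 8 for LRL1, and in 7 for each of HB40 and bZIP3, with late-sown Lumen plots at 14 DAF equal. The 3 shaded libraries lay above the 3 control libraries without overlap in 2 combinations for LRL1, 6 for HB40 and 2 for bZIP3. Of all genes tested, 5.06% did so in late-sown Solar plots at 14 DAF, 6.34% at 7 DAF, 7.41% in optimal-sown Solar plots at 14 DAF and 3.4% at 7 DAF. In Lumen the shares were 1.82% in late-sown plots at 14 DAF, 6.52% at 7 DAF, 7.4% in optimal-sown plots at 14 DAF and 6.72% at 7 DAF.

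In the order of the 16 group means, the 3 highest were shaded groups for each gene, and neighbours were rarely apart. Shaded and control groups were mixed further down, with optimal-sown control Lumen plots at 7 DAF level with their shaded partners for bZIP3 and late-sown shaded Lumen plots at 14 DAF among the lowest for HB40 and bZIP3. The order began with late-sown shaded Solar plots at 14 DAF for LRL1 (6.33 ± 1.53 TPM) and bZIP3 (14.7 ± 8.62 TPM), and with optimal-sown shaded Lumen plots at 7 DAF for HB40 (12.7 ± 2.08 TPM, SD, n = 3). Of the 15 steps between neighbours, none exceeded the larger SD of both groups for LRL1 and bZIP3, and 1 did for HB40. That step lay between optimal-sown shaded Solar plots at 14 DAF (1.67 ± 0.58 TPM) and late-sown control Solar plots at 7 DAF (0.667 ± 0.58 TPM).

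The difference between shaded and control plots was present at both developmental times for HB40 and bZIP3. At 14 DAF it was 1.49 ± 0.33 for LRL1, 1.996 ± 0.37 for HB40 and 1.64 ± 0.37 for bZIP3 on the log2 scale, with adjusted p of 0.00199, 0.000311 and 0.00258 in limma, and 3.77% of the genes tested were called higher. At 7 DAF it was 1.16 ± 0.33 for LRL1, 2.76 ± 0.37 for HB40 and 2.11 ± 0.37 for bZIP3, with adjusted p of 0.0200, 4.03e-06 and 0.000169, and 3.66% of genes were called higher. LRL1 at 7 DAF did not pass the threshold of 0.01, and passed it without the pair of libraries whose Solar shares were 1.34% and 1.35% (adjusted p = 0.00999). The study built the module on the 14 DAF libraries, but kept it partly for genes called for shading over both times. The 7 DAF contrast is thus not fully independent of that choice. In fits without a whole replicate number, which leave 2 libraries per group, the 14 DAF call was lost in 2 of 3 for each gene, with estimates of 0.96 to 2.07 for LRL1, 1.95 to 2.04 for HB40 and 1.48 to 1.76 for bZIP3. These fits called 4.73%, 0.81% and 1.78% of all genes at 14 DAF in either direction, against 6.56% with all libraries. The 7 DAF calls of HB40 and bZIP3 were lost in 1 of 3, without replicate 3 (adjusted p of 0.0326 and 0.165), where 7 genes in all were called. The S–S ratio by developmental time term, which tests whether the difference changed between the times, was called for 0.771% of genes and for none of the 3 (adjusted p of 0.760 for LRL1, 0.449 for HB40 and 0.678 for bZIP3).

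The Lumen libraries alone gave fewer calls, for the 3 genes and for all genes tested. Within these 24 libraries, shaded minus control plots gave 1.02 ± 0.31 for LRL1 (adjusted p = 0.0488), 2.11 ± 0.30 for HB40 (adjusted p = 0.000326) and 1.40 ± 0.34 for bZIP3 (adjusted p = 0.0145), and of the 3 HB40 alone passed the threshold. Over all genes 3.18% were called in either direction, against 9.21% with all 48 libraries. At 14 DAF in Lumen no gene of the 3 passed, with 0.85 ± 0.43 for LRL1, 1.13 ± 0.42 for HB40 and 0.51 ± 0.48 for bZIP3 (adjusted p of 0.385, 0.207 and 0.708), where 0.435% of all genes were called, against 6.56% with all libraries. For HB40 and bZIP3 these values include the late-sown shaded group that was listed at 0.

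**Figure D2:**
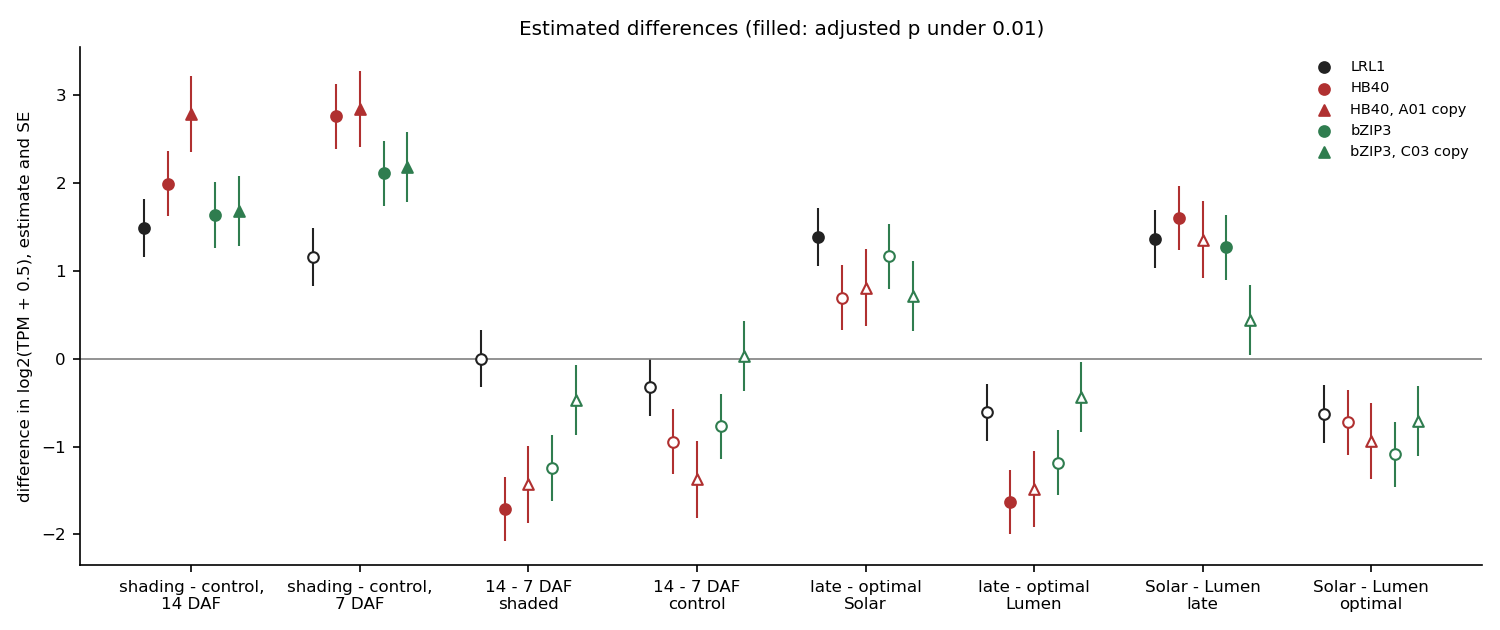
Estimated differences in log2(TPM + 0.5) with their SE (vertical axis) for LRL1, HB40 and bZIP3 (circles) and the annotated second copies of HB40 and bZIP3 (triangles) in 8 contrasts of the fit (horizontal axis), filled where the adjusted p was under 0.01. All 5 genes lie above 0 for shading at both times, from 1.16 for LRL1 at 7 DAF to 2.85 for the HB40 copy at 7 DAF.

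On average HB40 and bZIP3 were lower at 14 DAF than at 7 DAF, though not in every combination, and LRL1 was not called. Averaged over all other factors, 14 minus 7 DAF gave −1.33 ± 0.26 for HB40 and −1.01 ± 0.26 for bZIP3 (adjusted p of 7.36e-05 and 0.00194), against −0.16 ± 0.23 for LRL1 (adjusted p = 0.602). Genes called lower at 14 DAF made up 17.2% of those tested. The mean log2 value was lower at 14 DAF in 7 of 8 combinations for HB40 and 6 for bZIP3. In late-sown shaded Solar plots bZIP3 was higher at 14 DAF (14.7 TPM) than at 7 DAF (6.33 TPM), and HB40 had 10.3 and 11.3 TPM. Lumen alone gave −1.76 ± 0.30 for HB40 and −1.78 ± 0.34 for bZIP3, with 21.2% of genes called in either direction. The genotype by time term for bZIP3 was 1.55 ± 0.53 and was not called (adjusted p = 0.0472 in limma). The 24 libraries at 14 DAF averaged 2.0 ± 4.17 TPM of HB40, and the 24 at 7 DAF averaged 5.33 ± 6.20 TPM (SD). For bZIP3 the means were 2.29 ± 5.46 TPM (14 DAF) and 4.04 ± 6.26 TPM (7 DAF). For LRL1 they were 1.67 ± 2.04 TPM (14 DAF) and 1.83 ± 2.30 TPM (7 DAF). The call for bZIP3 was lost when its TPM was summed with that of its annotated copy (−0.58 ± 0.31, adjusted p = 0.122).

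Within shaded plots, HB40 was lower at 14 DAF, with a difference of −1.71 ± 0.37 (adjusted p = 0.000747, with 7.09% of genes called lower), and bZIP3 missed the threshold with −1.24 ± 0.37 (adjusted p = 0.0128). LRL1 had an estimate of 0.0018 ± 0.33 there. Without the pair of libraries with the lowest Solar shares, bZIP3 was called in shaded plots (−1.34 ± 0.38, adjusted p = 0.00853) and HB40 in control plots (−1.16 ± 0.32, adjusted p = 0.00407). Within control plots none of the 3 was called, with −0.33 ± 0.33 for LRL1, −0.95 ± 0.37 for HB40 and −0.77 ± 0.37 for bZIP3, where most values were 0 or 1 TPM at both times and 28% of genes were called in either direction. For HB40, 10 of 12 control libraries were listed at 0 at 14 DAF, against 5 of 12 at 7 DAF. For bZIP3, 9 of 12 control libraries were listed at 0 at 14 DAF and 6 of 12 at 7 DAF.

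Neither the sowing date nor the genotype alone was called for any of the 3. The estimated difference between sowing dates was above 0 in Solar and below 0 in Lumen for each gene, but none was called in both. The genotype by sowing date term, given as late minus optimal in Solar minus the same difference in Lumen, was 1.997 ± 0.46 for LRL1, 2.33 ± 0.52 for HB40 and 2.35 ± 0.53 for bZIP3 (adjusted p of 0.00403, 0.00300 and 0.00293), and 2.34% of the genes tested were called in this direction. Main terms were 0.39 ± 0.23, −0.47 ± 0.26 and −0.01 ± 0.26 for late minus optimal sowing in LRL1, HB40 and bZIP3 (adjusted p of 0.202, 0.167 and 0.987). For Solar minus Lumen they were 0.37 ± 0.23, 0.44 ± 0.26 and 0.09 ± 0.26 (adjusted p of 0.230, 0.200 and 0.830). Of all genes tested, 20.9% were called for sowing date and 26.2% for genotype.

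The contrasts behind the term were computed after the values had been seen. In Solar, late minus optimal sowing gave 1.38 ± 0.33 for LRL1 (adjusted p = 0.00216), 0.70 ± 0.37 for HB40 (adjusted p = 0.175) and 1.17 ± 0.37 for bZIP3 (adjusted p = 0.0200). In Lumen it gave −0.61 ± 0.33 for LRL1 (adjusted p = 0.187), −1.63 ± 0.37 for HB40 (adjusted p = 0.00133) and −1.19 ± 0.37 for bZIP3 (adjusted p = 0.0188). LRL1 was thus called in Solar (with 6.42% of genes called higher) and HB40 in Lumen (with 6.36% called lower), while bZIP3 passed in neither. Some combinations went against the sign of their genotype. In shaded Lumen plots at 7 DAF, late minus optimal was 0.57 for LRL1 and 1.22 for bZIP3. In control Solar plots at 7 DAF it was −0.65 for HB40 and −0.28 for bZIP3. All other combinations had the sign of their genotype. The call of LRL1 in Solar was lost without the pair of libraries with the lowest Solar shares (1.16 ± 0.33, adjusted p = 0.0135), with a pseudocount of 0.1 (2.14 ± 0.62, adjusted p = 0.0110) and without replicate 2 or 3. That of HB40 in Lumen was lost without replicate 1 or 3, and bZIP3 was called in Lumen with a pseudocount of 0.1 (−2.51 ± 0.58, adjusted p = 0.00177). At the late sowing date, averaged over treatments and times, Solar was above Lumen for all 3, by 1.37 ± 0.33, 1.60 ± 0.37 and 1.27 ± 0.37 (adjusted p of 0.00101, 0.000633 and 0.00627, with 13.7% of genes called higher). For bZIP3 this did not hold at 7 DAF in late-sown shaded plots, where Solar had 6.33 TPM and Lumen 14.3 TPM (−0.99 on the log2 scale), with overlap. In the late-sown controls at 7 DAF bZIP3 differed by 0.77, also with overlap. LRL1 and HB40 were above Lumen in both of these comparisons, by 0.70 and 0.65 in shaded and 1.30 and 1.06 in control plots. At the optimal date the estimates were −0.63 ± 0.33, −0.72 ± 0.37 and −1.09 ± 0.37, and none was called (adjusted p of 0.227, 0.214 and 0.0468, with 2.63% of genes called lower).

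The Solar shares differed between the sowing dates too. In late-sown libraries labelled Solar at 7 DAF they were 19.9%, 99.5% and 99.1% with shading and 68.5%, 99.8% and 87.0% without, and late-sown libraries at 14 DAF served as the standard. In optimal-sown libraries labelled Solar at 14 DAF they were 99.8%, 68.1% and 99.6% with shading and 74.8%, 10.9% and 41.3% without. At 7 DAF the optimal-sown libraries had 18.7%, 1.34% and 20.4% with shading and 46.4%, 1.35% and 42.5% without. The sowing date and the share of Solar RNA in libraries labelled Solar cannot be told apart in this term. Without both libraries of the lowest share, the term was 1.77 ± 0.46 for LRL1, which then missed the threshold (adjusted p = 0.0108), 1.89 ± 0.45 for HB40 (adjusted p = 0.00627) and 2.13 ± 0.53 for bZIP3 (adjusted p = 0.00846). In fits without a whole replicate number, the call was lost in 2 of 3 for each gene, without replicate 2 (1.69 for LRL1, 2.30 for HB40 and 2.14 for bZIP3) and without replicate 3 (2.07, 2.31 and 2.57). These 2 fits called 0.662% and 0.0706% of all genes, against 5.48% with all libraries.

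The genotypes were furthest apart in late-sown plots at 14 DAF, where the label standard was set. Solar minus Lumen was 1.73 ± 0.46 for LRL1, 2.35 ± 0.52 for HB40 and 2.64 ± 0.53 for bZIP3 (adjusted p of 0.00331, 0.000502 and 0.000138), and 12.5% of genes were called higher in Solar there. HB40 and bZIP3 were listed at 0 in all 6 late-sown Lumen libraries at 14 DAF, and LRL1 did not exceed 1 TPM in them. The shaded Solar libraries held most of the level, with 4 to 19 TPM for HB40 and 7 to 24 TPM for bZIP3, while their 3 controls did not exceed 1 TPM for either gene. Whether shading changed the genotype difference there was tested after the values had been seen and was not called, with 1.92 ± 0.93 for LRL1, 3.65 ± 1.04 for HB40 and 4.23 ± 1.05 for bZIP3 (adjusted p of 0.675, 0.280 and 0.171, with 0.00186% of genes called).

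**Figure D3:**
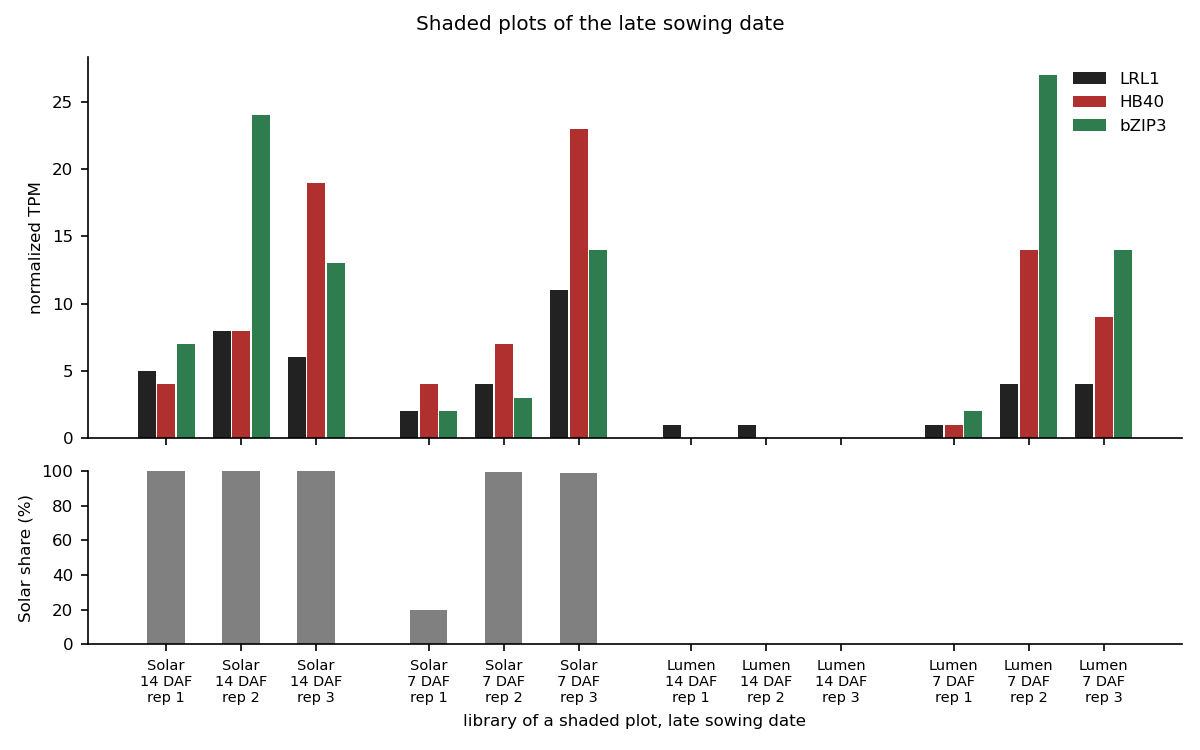
Normalized TPM of LRL1, HB40 and bZIP3 (bars, upper axis) in the 12 libraries of late-sown shaded plots, and the Solar share of each library in percent (lower axis). In Lumen at 14 DAF no bar exceeds 1 TPM, while all 3 Solar libraries at 14 DAF have at least 4 TPM of each gene, and replicate 1 of Solar at 7 DAF has a Solar share of 19.9%.

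The annotation used here gave HB40 and bZIP3 a second copy with the same Arabidopsis homolog on the other subgenome, and none to LRL1. No member and no copy had values identical to those of any other gene, but reads of near-identical copies can be split between them by the counting, so levels of single copies are uncertain. The HB40 copy BnaA01g01090D was the higher of its pair in 39 of 48 libraries and equal in the other 9, with 17.6 ± 16.5 TPM in shaded and 1.67 ± 1.93 TPM in control libraries (SD, n = 24 each). Its shaded minus control difference was 2.82 ± 0.31 (adjusted p = 4.11e-08). In late-sown shaded plots at 14 DAF it had 11, 26 and 59 TPM in Solar and 1 TPM in each of the 3 Lumen libraries. It was 1.40 ± 0.31 lower on the log2 scale at 14 DAF than at 7 DAF (adjusted p = 0.000312).

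The bZIP3 copy BnaC03g07400D was at a level like that of its partner, above it in 14 libraries, equal in 19 and below it in 15. It had 4.42 ± 4.44 TPM in shaded and 0.625 ± 0.824 TPM in control libraries, and its difference was 1.94 ± 0.28 (adjusted p = 5.70e-06). Unlike bZIP3 it was not called between 14 and 7 DAF (−0.22 ± 0.28, adjusted p = 0.560) or for genotype by sowing date (1.15 ± 0.57, adjusted p = 0.182). Whether the copies differed from each other in these terms was not tested. In late-sown Lumen plots at 14 DAF, where bZIP3 was listed at 0, the copy had 2, 0 and 2 TPM with shading and 2, 0 and 1 TPM without. Summed with their copies, HB40 and bZIP3 differed between shaded and control plots by 3.04 ± 0.32 and 2.30 ± 0.31 (adjusted p of 1.91e-08 and 1.25e-06).

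**Figure D4:**
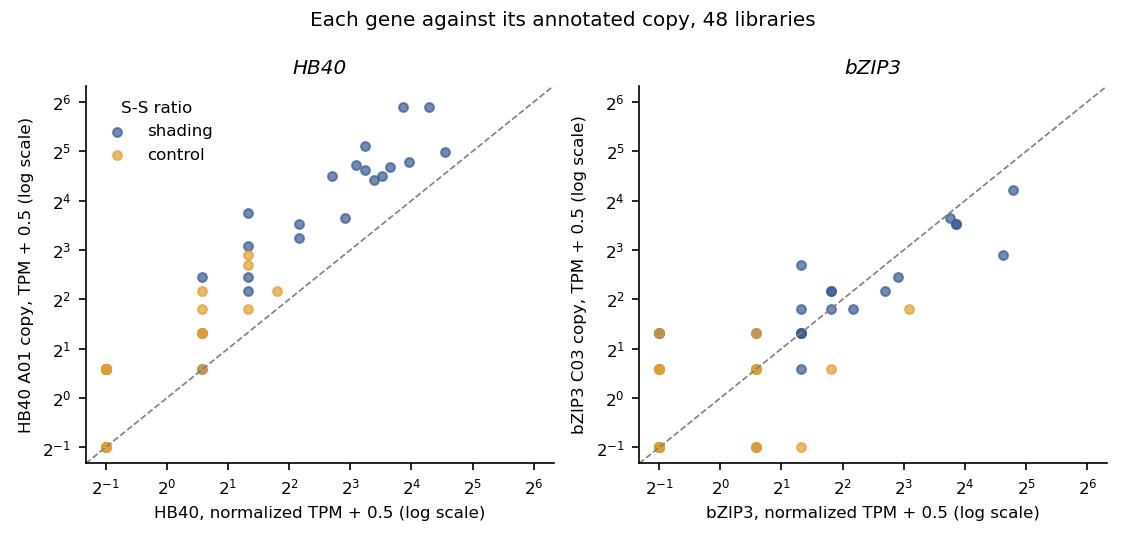
Level of the annotated second copy (vertical axis) against HB40 on the left and bZIP3 on the right (horizontal axis), as normalized TPM + 0.5 on log scales, in 48 libraries, with shaded plots in blue, control plots in orange and equal levels on the dashed line. No point of the HB40 pair lies below the line, and the points of the bZIP3 pair lie on both sides of it.

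Related genes were read from the part of the annotation that could be used, which does not name every member of a family. Of the HD-Zip genes around HB40, 3 were tested besides HB40 and all 3 rose with shading. Their median was 2.48, against 0 over all genes tested, of which 6.18% rose. They were the HB40 copy and both annotated copies of HB21, whose product in Arabidopsis acts with HB40 in buds. BnaA09g09650D (HB21) had 102 ± 93.9 TPM in shaded and 16.0 ± 12.8 TPM in control libraries, a difference of 2.32 ± 0.19 (adjusted p = 2.65e-10), and BnaCnng58720D (HB21) had 46.6 ± 37.4 TPM in shaded and 6.46 ± 5.23 TPM in control libraries, a difference of 2.48 ± 0.20 (adjusted p = 2.70e-10). All 3 also fell at 14 DAF, as did 17.2% of all genes tested. The study had listed these 3 genes in the same module as HB40, so their direction is not independent evidence. BRC1, HB53 and NCED3 were not analysed here.

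Genes of group S and C bZIP factors did not move together with bZIP3. Of the 7 tested besides bZIP3, 2 rose with shading, 1 fell and 4 did not pass, with a median of 0.03. Of all genes tested, 6.18% rose and 3.03% fell. Those that rose were the bZIP3 copy and bZIP1 (BnaC07g27220D), which in Arabidopsis takes part in the response to low energy, with 3.79 TPM in shaded and 1.0 TPM in control libraries and a difference of 1.48 ± 0.32 (adjusted p = 0.000995). bZIP10 (BnaC09g00090D) fell by 0.21 on the log2 scale (SE 0.05, adjusted p = 0.00260). bZIP44 (BnaA07g21710D), the most abundant of them, had 886 TPM in shaded and 871 TPM in control libraries, a difference of 0.01 ± 0.05.

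The root hair list held 1 gene besides LRL1. RHD6 (BnaA07g20890D), which in Arabidopsis starts root hair development, had 0.917 TPM in shaded and 0.792 TPM in control libraries, a difference of 0.12 ± 0.20 (adjusted p = 0.761). The low-sugar list held only SEN1 (BnaC01g02910D), which did not pass the filter on low values and had 2.21 TPM in shaded and 4.0 TPM in control libraries.

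Of 4 genes of the ABA response, 3 rose with shading and 1 did not pass. Their median was 0.46, against 0 over all genes tested, of which 6.18% rose. RD26 (BnaC07g40860D), a NAC factor induced by ABA, differed by 1.12 ± 0.16 (adjusted p = 3.34e-06), ABI5 (BnaA05g08020D) by 0.47 ± 0.12 (adjusted p = 0.00660) and ABF4 (BnaA05g20870D) by 0.45 ± 0.09 (adjusted p = 0.000568). ABI5 and ABF4 are bZIP factors that act in ABA signalling in Arabidopsis.

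Of 5 senescence genes, 4 rose with shading and 1 fell, against 6.18% and 3.03% of all genes tested. Those that rose were 3 copies of NAP and 1 of ORE1, NAC factors that promote leaf senescence in Arabidopsis, with differences from 1.79 to 2.88. SAG12 (BnaC07g18750D), a protease gene used as a marker of senescence, fell, with a mean of 251 TPM in shaded and 443 TPM in control libraries and a difference of −2.15 ± 0.39 (adjusted p = 0.000116). Of the 16 other TFs that the study listed in the module, all 16 rose with shading, with a median of 2.30. That list was chosen on these libraries, and it holds HB21, the HB40 copy and several of the NAP and ORE1 genes named above.

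**Figure D5:**
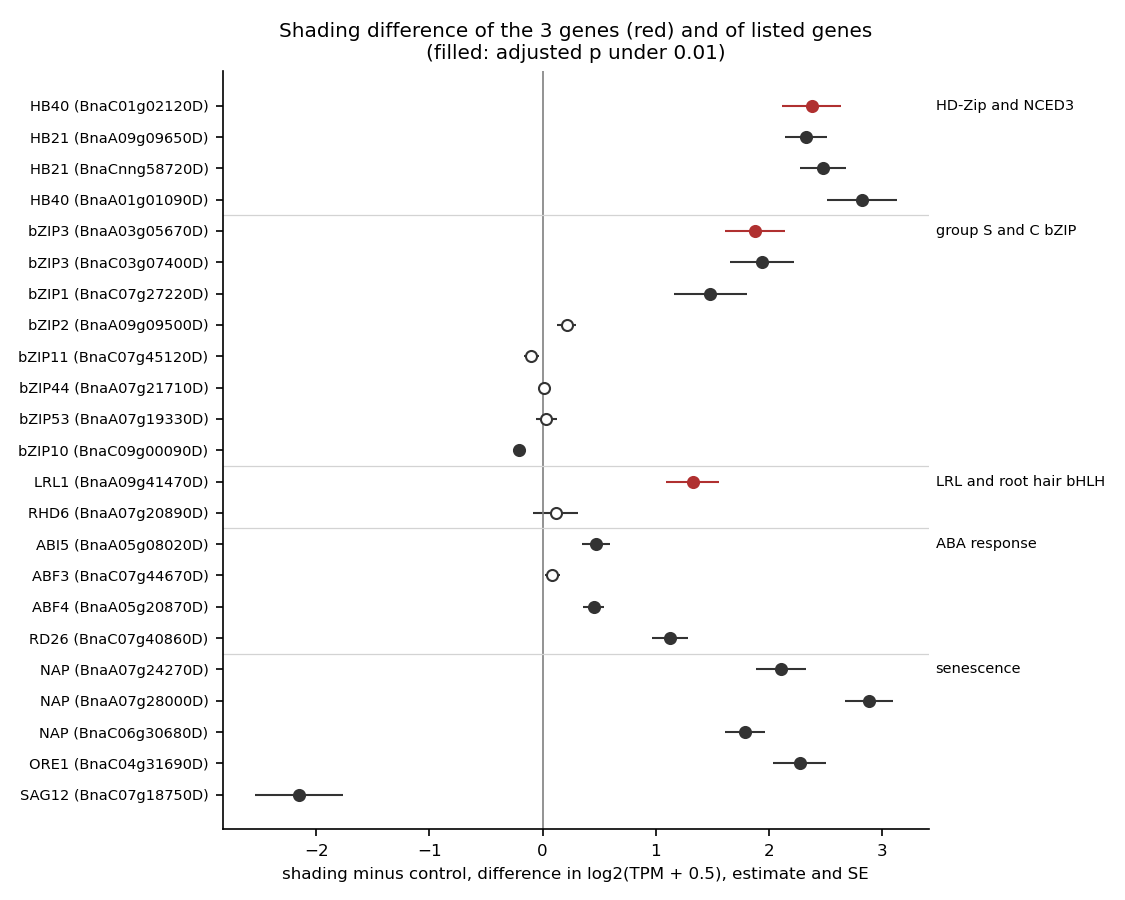
Shaded minus control difference in log2(TPM + 0.5) with its SE (horizontal axis) of HB40, bZIP3 and LRL1 in red and of listed HD-Zip, bZIP, root hair, ABA response and senescence genes in black, filled where the adjusted p was under 0.01. HB40 at 2.38 lies beside both HB21 copies at 2.32 and 2.48, while bZIP3 at 1.88 lies above bZIP1 at 1.48 and far from bZIP44 at 0.01.

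Of the markers of seed stage and of other tissues, 3 copies of WRI1 and the seed coat gene TT12 fell with shading at 14 DAF and 1 of 7 silique wall and leaf genes rose with shading overall. The 4 seed genes (OLEO2 and 3 copies of WRI1, an activator of oil synthesis) summed to 7.5 TPM in shaded libraries at 14 DAF (median, 3 to 354) against 69 TPM in controls (3 to 430). At 7 DAF they summed to 8 TPM in shaded libraries (6 to 12) and 7.5 TPM in controls (4 to 10). OLEO2 was near 0, with means of 0.708 TPM in shaded and 0.542 TPM in control libraries. At 14 DAF 2.79% of the genes tested fell, and no WRI1 copy was called at 7 DAF or over both times. The seed coat gene TT12 had 19 TPM in shaded libraries at 14 DAF (median, 10 to 65) and 35.5 TPM in controls (20 to 50), and 10.5 TPM in shaded libraries (6 to 13) and 13 TPM in controls (7 to 17) at 7 DAF. The 7 silique wall and leaf genes summed to 329.5 TPM in shaded libraries at 14 DAF (244 to 634) and 304.5 TPM in controls (251 to 450), and to 475 TPM in shaded libraries at 7 DAF (296 to 862) against 309.5 TPM in controls (251 to 455). Of these 7, 1 copy of RBCS1B rose with shading and 6 did not pass, where 6.18% of all genes tested rose. None of the 7 was called at 14 DAF. The part of seed stage and of tissue in the differences of LRL1, HB40 and bZIP3 was not tested.

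Over the 16 group means of log2(TPM + 0.5), HB40 and bZIP3 were most alike among the 3, with a Pearson's r of 0.91, against 0.85 for LRL1 and bZIP3 and 0.80 for LRL1 and HB40. These are descriptions over groups that share the shading contrast, for genes that the study had picked from 1 co-expression module. Over the 24 shaded libraries alone r was 0.84, 0.74 and 0.66 for these pairs, and over the 24 control libraries 0.80, 0.43 and 0.32. By r with HB40 over the 16 group means, bZIP3 ranked 137 and LRL1 725 among 53809 other genes.

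The genes most like each of the 3 were sought among the genes that averaged 5 TPM or more, by r over the 16 group means and without the annotated copies. For HB40 the 5 highest were BnaA08g23410D (0.97), BnaA04g17400D (0.97), BnaA03g26220D (0.97), BnaCnng58720D (0.97) and BnaA09g27820D (0.97), of which BnaCnng58720D is a copy of HB21. For bZIP3 they were BnaA10g00170D (0.97), BnaA09g46650D (0.96), BnaAnng37680D (0.96), BnaA09g33460D (0.95) and BnaC04g52910D (0.95), of which BnaA09g33460D is annotated as amidohydrolase-related. For LRL1 they were BnaAnng30540D (0.92), BnaA05g05590D (0.90), BnaA03g00800D (0.90), BnaCnng74170D (0.90) and BnaC06g29080D (0.90), of which BnaA05g05590D carries an Hs1pro-1 domain. BnaA08g23410D, the gene most like HB40, had 69.8 ± 77.2 TPM in shaded and 2.96 ± 5.22 TPM in control libraries. BnaA10g00170D, the gene most like bZIP3, had 10.2 ± 11.2 TPM in shaded and 1.42 ± 1.50 TPM in control libraries. BnaAnng30540D, the gene most like LRL1, had 8.83 ± 8.67 TPM in shaded and 1.71 ± 0.95 TPM in control libraries.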

How the data were processed

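Reads of 48 seed libraries were quantified by the authors with kallisto 0.46 and scaled between libraries with sleuth, and the deposited score of a gene is its normalized TPM in whole numbers. The read counts were not used here, so no count model was fitted and no depth-based interval is given. All values were analysed on the log2(TPM + 0.5) scale without further scaling. The 53810 of 101040 genes that reached 1 TPM in 47% of libraries or more were fitted with limma 3.58.1 in R 4.3.3 (R package data.table, version 1.17.8). The model held 15 terms, namely S–S ratio, genotype, sowing date, developmental time and their interactions, with a mean-variance trend and empirical Bayes moderation. An interaction is given as a difference of differences. Within a term, p-values of all genes tested were adjusted after Benjamini and Hochberg, and an adjusted p under 0.01 was called. The fit was tested on simulated data. Likeness, copies and plots were made in Python 3.11.15 (numpy 2.4.6, pandas 2.3.3, matplotlib 3.10.9).

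Replicates were plots of a split–split-plot field trial, whose plot structure the main model leaves out. Sowing dates were assigned to main plots, shading to subplots and genotypes to sub-subplots, so p-values for shading and sowing date can be too small. Solar shares rest on 47 Solar and 51 Lumen genes, detected (5 TPM or more) in every late-sown library of one genotype at 14 DAF and listed at 0 in the other. The named genes were the 3 TFs, genes with the same annotated Arabidopsis homolog, the 5 genes most like each, and lists of related genes and tissue markers. The 3 TFs and the lists were chosen with earlier results of these data known. The alternatives were other pseudocounts, filters and scalings, a fit without the trend, replicate blocks, Lumen alone, likeness over 48 libraries, and fits without single libraries, replicate numbers or the pair labelled Solar with the lowest Solar shares. Sums with the annotated copies, contrasts within genotype or sowing date, and the S–S ratio by genotype contrast in late sowing at 14 DAF were added after seeing the data. Trait data and sequences were not used here.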

Additional observations from a re-analysis of the deposited data

Results flagged for a closer look

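The difference between late and optimal sowing differed between genotypes for all 3 genes, by the genotype by sowing date term of the limma fit. It was 1.997 for LRL1, 2.33 for HB40 and 2.35 for bZIP3 on the log2 scale, as Solar minus Lumen. The estimate of late minus optimal was above 0 in Solar and below 0 in Lumen for each gene, but no gene was called in both genotypes. The Solar shares of the libraries differed between the sowing dates, and their part in the term cannot be told apart from that of the sowing date.

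For HB40 and bZIP3 in shaded plots at 14 DAF, every late-sown library lay on one side of every optimal-sown library in Solar and on the opposite side in Lumen. The share of all genes that did so was not computed, so this pattern cannot be called unusual. For HB40, late minus optimal sowing was 2.10 in Solar and −2.78 in Lumen on the log2 scale. For bZIP3 it was 3.46 in Solar and −2.08 in Lumen. The late-sown Lumen libraries behind these values were all listed at 0, so that the Lumen values depend on the pseudocount. Whether the genotypes differed in these plots alone was not tested.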

How the results depend on the processing

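The cause of each change below was not tested, and all values are on the log2 scale. Only HB40 kept its overall shading call in every fit that was run. LRL1 could not be fitted with the stricter filter, as it did not reach 5 TPM in 10% of libraries. No call changed with the trend left out, no filter, median-ratio or quantile scaling, or either replicate block. With the replicate number as a replicate block, the shading difference of HB40 stayed at 2.38 (adjusted p = 3.99e-08), and with the plot as a replicate block at 2.38 (adjusted p = 5.18e-08). Neither block stands for the subplots to which shading was assigned. The numbers did not pair the samples, with a median correlation of −0.05 over 24 pairs, 7 of them over 0.1 and 3 of them best with their own number. With likeness over 48 libraries, 4 of the 5 genes named for LRL1, 2 for HB40 and 3 for bZIP3 were named again.

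A pseudocount of 0.1 gave 2.57 for LRL1 between genotypes in late sowing at 14 DAF (call lost) and −1.80 for HB40 between times in control plots (call gained), and a pseudocount of 1 gave 0.13 for bZIP3 between sowing dates, without a call. Rescaling every library to the same sum gave −0.032 for LRL1 between times in shaded plots, without a call. Lumen alone lost the shading calls of LRL1 (1.02) and bZIP3 (1.40), and at 14 DAF those of LRL1 (0.85), HB40 (1.13) and bZIP3 (0.51). It gained a sowing date call for HB40 (−1.63) and a call between times in shaded plots for bZIP3 (−2.67). Without a call, LRL1 changed sign there for sowing date (−0.61), for S–S ratio by time (−0.32) and between times in shaded plots (−0.71). Summed with its copy, bZIP3 lost its calls for time (−0.58) and genotype by sowing date (2.15) and changed sign without a call for sowing date (0.039) and genotype (−0.028), and HB40 gained one between times in control plots (−1.59).

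Leaving out each library, each replicate number or the pair labelled Solar with the lowest Solar shares gave these ranges. For shading they were 1.20 to 1.43 for LRL1 and 1.54 to 2.18 for bZIP3, at 14 DAF 0.96 to 2.07 for LRL1, 1.86 to 2.13 for HB40 and 1.48 to 1.80 for bZIP3, and at 7 DAF 0.79 to 1.45 for LRL1, 2.49 to 3.27 for HB40 and 1.60 to 2.68 for bZIP3. For time they were −1.55 to −1.20 for HB40 and −1.13 to −0.91 for bZIP3, in shaded plots −0.29 to 0.50 for LRL1, −2.01 to −1.47 for HB40 and −1.52 to −1.05 for bZIP3, and in control plots −0.78 to 0.20 for LRL1 and −1.16 to −0.78 for HB40. For genotype by sowing date they were 1.69 to 2.23 for LRL1, 1.89 to 2.49 for HB40 and 2.10 to 2.57 for bZIP3, and for genotypes in late sowing at 14 DAF 1.47 to 2.13 for LRL1 and 2.08 to 2.61 for HB40. Without a call in any fit, they were −0.49 to 1.28 for S–S ratio by time in LRL1, and −0.17 to 0.12 for sowing date and −0.25 to 0.50 for genotype in bZIP3. No single library ended a shading call or a genotype by sowing date call. LRL1 gained its shading call at 7 DAF without 1 of 3 shaded libraries at 7 DAF (Lumen late replicate 1, Solar late replicate 1, Solar optimal replicate 2). LRL1 lost its genotype call in late sowing at 14 DAF without 1 of 4 libraries (Lumen control replicate 1 or 2, Lumen shading replicate 3, Solar control replicate 3). For HB40, the fit without Solar control optimal 7 DAF replicate 2 gained a call between times in control plots, and a call for bZIP3 in shaded plots was gained without 1 of 6 libraries (Lumen shading late 7 DAF replicate 1, Solar control late 7 DAF replicate 1, Solar shading late 7 DAF replicate 1, Solar shading late 14 DAF replicate 2, Solar shading optimal 7 DAF replicate 2, Solar shading optimal 14 DAF replicate 3). bZIP3 gained a call between sowing dates in Lumen without Lumen control optimal 7 DAF replicate 3 or Lumen shading late 7 DAF replicate 2, and in Solar without Solar shading late 7 DAF replicate 1. Fits without a whole replicate number have 2 libraries per group and called fewer genes in most terms. Of these 3 fits, 2 lost the calls of each gene for shading at 14 DAF and genotype by sowing date, of bZIP3 for time, of LRL1 for genotype in late sowing at 14 DAF and for sowing date in Solar, and of HB40 for sowing date in Lumen. The calls lost in 1 were those of LRL1 and bZIP3 for shading, of HB40 and bZIP3 for shading at 7 DAF, and of HB40 for time, for time in shaded plots and for genotype in late sowing at 14 DAF. Without the pair, LRL1 lost its calls for genotype by sowing date and for sowing date in Solar and gained one for shading at 7 DAF, bZIP3 gained one between times in shaded plots and HB40 one in control plots.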
